A study of Mus musculus with 81 samples.

Results

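The response of cKO macrophages, in which both genes for histone H3.3 were targeted, to interferon-gamma (IFNγ) was read in 4 RNA-seq libraries of bone marrow-derived macrophages (BMDMs) at day 8 of culture, out of 81 samples in the series. BMDMs are macrophages grown from mouse bone marrow cells in macrophage colony-stimulating factor. The 4 libraries were chosen by their labels, not by any measured value: 2 cKO libraries given IFNγ for 12 h and 2 untreated cKO libraries, biological replicates 1 and 2 in each. In the cKO mice LysM-cre, a Cre recombinase expressed from the Lyz2 locus in myeloid cells and carried on both copies, acted on floxed H3f3a and H3f3b, the genes for the replacement histone H3.3. Untreated and treated cKO cells both carried these alleles. The WT cells set beside them, 3 untreated and 3 IFNγ libraries, carried the floxed genes without Cre, by the paper's description of its WT mice. The mice were male and female C57BL/6 animals aged 8 to 10 weeks, and the labels do not tie libraries with the same number to a single animal.

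IFNγ is made mainly by T and NK cells and is the classic activator of macrophages. It binds a receptor of IFNGR1 and IFNGR2 chains, whose kinases JAK1 and JAK2 activate STAT transcription factors. STAT dimers bind gamma-activated sites (GAS), and newly made IRF1 then acts at interferon-stimulated response elements (ISRE), so that interferon-stimulated genes (ISGs) for antigen presentation, cell-autonomous defence and inflammation are transcribed. The comparison asked which of these genes responded in the cKO cells, and how the response stood beside that of WT cells.

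The targeted genes were read first. In CPM, counts relative to library size after edgeR's TMM scaling, H3f3a was 7.31 and 7.33 in untreated cKO libraries and 1.21 and 5.30 in IFNγ libraries, against 43.9 ± 2.70 (SD, n = 3) in untreated and 46.8 ± 7.04 (SD, n = 3) in IFNγ-treated WT cells. H3f3b was 173 and 187 CPM in untreated and 325 and 237 CPM in IFNγ-treated cKO libraries, beside WT means of 225 ± 19.3 and 314 ± 1.91 CPM (SD, n = 3). H3f3a was thus low in every cKO library, while H3f3b was not called lower in untreated cKO cells (edgeR adjusted p = 0.916). The paper describes H3f3b deletion as variable, complete in some cKO samples and partial in others. It reports H3.3 loss in day 7 cKO BMDMs by qRT-PCR and western blot. Lyz2, which the Cre allele replaces, was between 3.3 and 21.7 CPM in the 4 cKO libraries and 9535 CPM on average in untreated WT cells. All 9 macrophage markers found in the annotation had counts, with summed levels of 5554 to 9912 CPM in the cKO libraries, while neutrophil and B cell markers summed to at most 1.8 CPM and erythroid markers were at 0. Dendritic cell markers, 7 of 8 with a count and Siglech at 0, moved with treatment. They summed to 134 and 150 CPM in untreated and 1342 and 595 CPM in IFNγ-treated cKO libraries, and 82.9 to 106 and 358 to 390 CPM in WT. Bst2, which is also an ISG, made up 1322 and 560 CPM of the treated sums, Clec9a and Xcr1 were called higher too, and the part of such cells in the response was not tested.

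The cKO library of IFNγ replicate 1 stood apart. It held 3614967 counts on genes, against 7057546 to 9879339 in the other 9 placed day 8 libraries, and 57.06% of its reads were unmapped, against 12.57% to 18.35%. A single RNA locus, Gm26917, took 53.15% of its gene counts, and mitochondrial genes took 0.795%, against 3.19% to 7.52% elsewhere. Stromal cell markers summed to 352 CPM in it, against 50.3, 116 and 55.8 CPM in the other cKO libraries, and their part in the results was not tested. Xist was 27.5 CPM there, 1062 and 891 CPM in the untreated and IFNγ WT libraries of replicate 3, and at most 1.51 CPM in the rest. No placed cKO library reached that WT level, and the part of the sex of the mice in the comparison of genotypes was not tested. The SD of log2 differences between cKO IFNγ replicates 1 and 2 was 1.17, against 0.422 to 0.584 for other replicate pairs. Counts of calls are therefore given with and without IFNγ replicate 1, as are the changes of leading genes. The remaining pair of day 8 cKO libraries, whose titles and library names disagree on treatment, was left out. In these bulk samples, fewer cells of a type and less RNA per cell cannot be told apart, and without strand in the counting a gene and an overlapping antisense RNA cannot be told apart either.

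IFNγ changed a large share of the measured transcriptome of cKO macrophages. Of 13075 genes tested with edgeR's quasi-likelihood test, 4399 (33.6%) passed a Benjamini-Hochberg adjusted p of 0.05, 2249 of them higher (17.2%) and 2150 lower (16.4%) with IFNγ. The changes upward reached further: 705 called genes rose more than 4-fold and 174 more than 16-fold, while 358 fell more than 4-fold. The median log2 fold change was 1.41 among genes called higher, -1.21 among genes called lower and -0.02 over all genes tested. Without IFNγ replicate 1 the same model called 5659 genes, of which 3986 were among the 4399, 90.6% of them, and none turned direction. It placed 795 genes more than 4-fold higher, 205 more than 16-fold higher and 516 more than 4-fold lower. When only the 4 cKO libraries were fitted, 1097 genes passed. Without untreated replicate 1 or 2 the count was 2349 or 2571. Fold changes below are log2 ratios of IFNγ over untreated, n = 2 against 2. Their SE was derived from edgeR's F statistic in the fit of all 10 libraries, so it draws on the spread of the WT libraries too. In 59.6% of all genes tested the treated and untreated cKO libraries did not overlap (27.5% higher, 32.1% lower), so separate groups alone do not set a gene apart. The shares of 17.2% called higher and 16.4% called lower are the background for the list counts below.

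**Figure D1:**
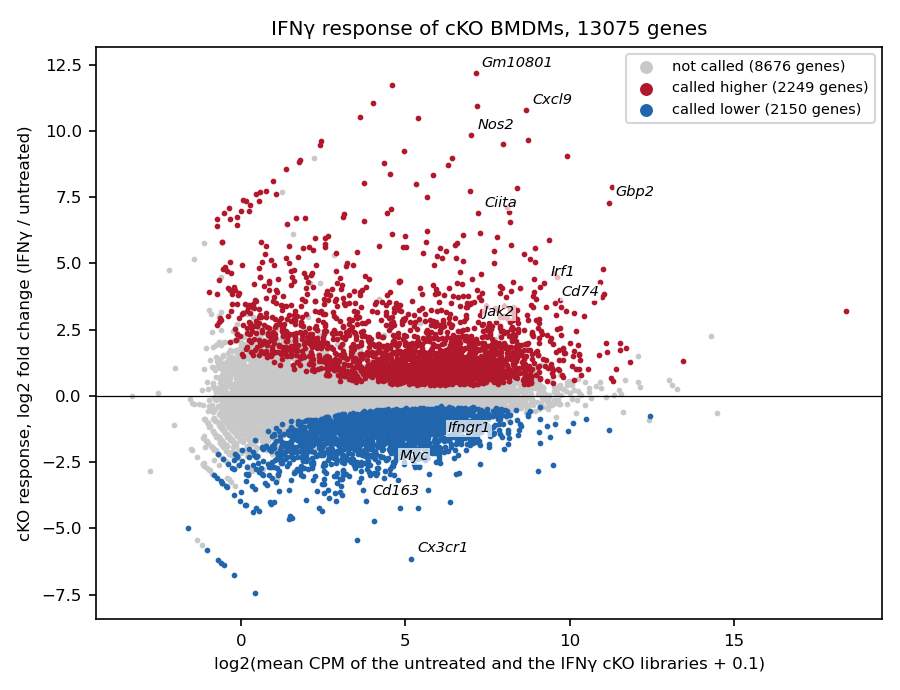
Each point is 1 of the 13075 genes tested, placed by its log2 mean CPM (plus 0.1) in the 4 cKO libraries and its log2 fold change with IFNγ in cKO cells. The 2249 genes called higher (red) extend above 10 on the log2 scale, farther from 0 than the 2150 called lower (blue), and 8676 genes (grey) were not called.

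Promoters of some genes of this pathway hold sites of the kind that STAT and IRF factors are known to bind. For 33 of the 47 genes chosen for description a RefSeq promoter sequence was at hand, and 11 of these held a GAS or ISRE-like motif in the 250 bases before the start of transcription, against 10.3% of tested genes and 9.66% of all promoters over the same bases. GAS was searched as TTCNNNGAA, which reads alike on both strands, and the ISRE-like motif as GAAANNGAAA on either strand. The windows of 6 genes, given 5′ to 3′ on the gene's strand (RefSeq, GRCm38.p6), are printed because each holds a motif and belongs to a group that rose in the results. Capitals mark the motif letters.

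The Irf1 window (chr11:53769764-53770013, plus strand) held a GAS at -90 to -82. In Socs1 (chr16:10785537-10785786, minus strand) overlapping ISRE-like motifs lay between -83 and -68. In Gbp2 (chr3:142620413-142620662, plus strand) an ISRE-like motif on the other strand lay at -59 to -50. Gbp5 (chr3:142496684-142496933, plus strand) held GAS letters at -245 and -52 and an ISRE-like motif on the other strand at -165. The Cxcl10 motif (chr5:92348890-92349139, minus strand) began at -213. Isg15 (chr4:156200819-156201068, minus strand) held 3 overlapping ISRE-like motifs from -78 to -57. Positions count back from the RefSeq start of transcription, which for Gbp5 lies 2956 bases from the start of the annotated gene. The windows of Cxcl9, Tap1, Psmb9 and Cd274, which also rose, held neither motif in these bases.
Irf1: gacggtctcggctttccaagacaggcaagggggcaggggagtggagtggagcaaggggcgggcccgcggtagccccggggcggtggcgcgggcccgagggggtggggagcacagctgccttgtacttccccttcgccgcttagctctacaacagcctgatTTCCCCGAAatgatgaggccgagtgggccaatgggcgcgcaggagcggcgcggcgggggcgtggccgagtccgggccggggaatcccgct
Socs1: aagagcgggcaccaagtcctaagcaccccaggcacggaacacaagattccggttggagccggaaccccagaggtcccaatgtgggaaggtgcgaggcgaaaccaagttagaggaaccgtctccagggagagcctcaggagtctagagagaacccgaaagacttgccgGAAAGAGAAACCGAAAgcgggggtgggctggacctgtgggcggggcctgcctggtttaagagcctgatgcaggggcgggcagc
Gbp2: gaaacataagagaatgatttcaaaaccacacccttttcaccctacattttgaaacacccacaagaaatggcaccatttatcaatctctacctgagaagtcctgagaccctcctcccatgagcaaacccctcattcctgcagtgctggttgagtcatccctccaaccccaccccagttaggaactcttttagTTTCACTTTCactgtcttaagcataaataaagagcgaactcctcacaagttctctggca
Gbp5: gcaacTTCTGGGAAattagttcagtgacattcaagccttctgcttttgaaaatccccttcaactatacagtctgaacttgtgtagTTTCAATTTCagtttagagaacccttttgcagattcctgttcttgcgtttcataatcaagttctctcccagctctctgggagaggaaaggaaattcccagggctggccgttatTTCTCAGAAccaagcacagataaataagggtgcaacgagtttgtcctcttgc
Cxcl10: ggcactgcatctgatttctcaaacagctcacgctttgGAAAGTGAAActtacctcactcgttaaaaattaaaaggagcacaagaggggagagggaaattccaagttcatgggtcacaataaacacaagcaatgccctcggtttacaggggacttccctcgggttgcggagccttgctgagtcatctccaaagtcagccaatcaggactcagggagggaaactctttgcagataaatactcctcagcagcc
Isg15: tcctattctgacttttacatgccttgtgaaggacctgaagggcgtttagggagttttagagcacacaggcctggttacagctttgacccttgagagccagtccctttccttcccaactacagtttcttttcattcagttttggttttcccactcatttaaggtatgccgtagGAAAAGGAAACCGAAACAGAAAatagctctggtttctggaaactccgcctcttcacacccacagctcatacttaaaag

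Over all 32851 promoter windows of 300 bases (250 before to 50 after the start), 8.30% held GAS letters and 3.44% held the ISRE-like motif. The other shares count genes with the motif in any of their windows. Over all tested genes with a promoter they were 8.22% and 4.22%, and over those not called 8.09% and 3.29%. Among promoters of cKO genes called higher, 9.02% (152 of 1685) held GAS and 9.20% (155) held the ISRE-like motif, against 7.89% (131 of 1660) and 2.59% (43) for genes called lower. Among genes that rose more than 16-fold the shares were 17.2% (20 of 116) and 21.6% (25). The GAS and ISRE-like shares without IFNγ replicate 1 were 9.2% and 8.09% for genes called higher, 7.69% and 2.52% for genes called lower and 17.9% and 21.4% above 16-fold. The ISRE-like letters were more frequent in genes that rose than in genes that fell, and both motifs were most frequent in the genes that rose more than 16-fold. These shares are descriptions without a test, and a motif match is not a bound site.

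Among the receptor and JAK-STAT genes, the signal transducers downstream of the receptor rose and Ifngr1 fell. Of 15 tested members of this list, 10 were called higher and 1 lower, with a median of 1.71. Ifngr1, the ligand-binding chain, was 97.5 and 110 CPM in untreated cKO libraries and 21.1 and 43.3 CPM with IFNγ, a log2 fold change of -1.61 ± 0.28 (edgeR adjusted p = 0.0017), and -1.23 without IFNγ replicate 1. Both treated libraries lay below both untreated ones, as in 32.1% of all genes tested. The Ifngr1 call was lost in the fit of the 4 cKO libraries alone. Ifngr2, the accessory chain, was 110 and 124 CPM untreated and 76.7 and 120 CPM treated (edgeR adjusted p = 0.393), and Jak1 was also not called.

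Jak2, the kinase carried by IFNGR2, went from 39.8 and 35.3 to 248 and 264 CPM, a log2 fold change of 2.77 ± 0.19. Stat2, which acts in type I interferon signalling, went from 216 and 215 to 627 and 1099 CPM, or 2.0 ± 0.28 (edgeR adjusted p = 0.00047), and 2.38 without IFNγ replicate 1. In both, the groups did not overlap, as in 59.6% of all genes tested, and IFNγ replicate 1 was the lower treated library.

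The feedback inhibitors rose most in this list. Socs1, which blocks JAK kinases, was 6.01 and 6.16 CPM in untreated cells and 668 and 478 CPM with IFNγ, a log2 fold change of 6.55 ± 0.28 (edgeR adjusted p = 1.18e-06). Socs3, which acts on gp130-family receptors, rose from 4.55 and 5.67 to 42.3 and 37.2 CPM, and Usp18, a deISGylase that also restrains type I interferon receptors, from 73.8 and 81.0 to 1021 and 643 CPM. Treated and untreated libraries were far apart for all of these genes.

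The transcription factors that carry the secondary response rose. Of 19 tested interferon regulatory factors and related regulators, 13 were called higher and 1, Cebpd, lower. Irf1 was 56.1 and 61.3 CPM untreated and 1011 and 1256 CPM with IFNγ, a log2 fold change of 4.27 ± 0.22 (edgeR adjusted p = 1.97e-06). Irf8, a lineage factor of monocytes and macrophages, went from 156 and 175 to 612 and 965 CPM. Irf7, which drives type I interferon and ISG transcription, went from 201 and 257 to 1635 and 2352 CPM. The groups were separate in each case, as they were upward in 27.5% of all genes tested. Irf9, the DNA-binding partner of STAT2, was not called, at 75.1 and 86.5 CPM untreated and 49.5 and 92.7 CPM treated.

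The class II transactivator Ciita rose from 2.76 and 2.15 to 280 and 310 CPM, a log2 fold change of 6.89 ± 0.40. Nlrc5, its counterpart for MHC class I, rose from 94.2 and 91.7 to 391 and 674 CPM. Batf2, an AP-1 family factor induced in activated macrophages, rose from 3.49 and 3.42 to 107 and 248 CPM. All 3 were low or moderate in both untreated libraries and high in both treated ones.

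**Figure D2:**
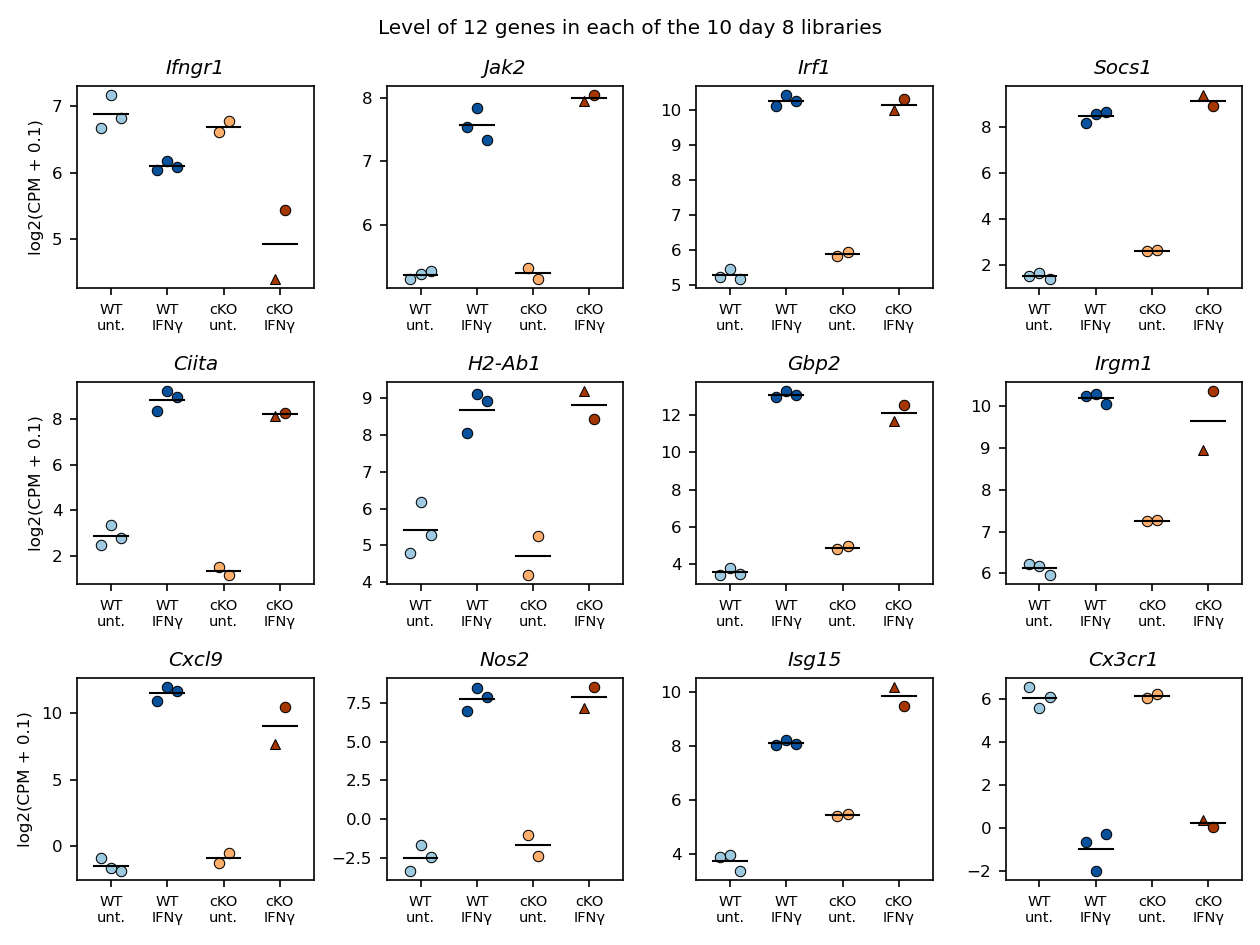
Levels of 12 genes as log2(CPM + 0.1) in each day 8 library, grouped as WT and cKO, untreated and IFNγ-treated. Bars mark the mean of the log values and the triangle marks cKO IFNγ replicate 1. Jak2, Irf1, Socs1, Ciita, H2-Ab1, Gbp2, Irgm1, Cxcl9, Nos2 and Isg15 were higher with IFNγ in every cKO library, and Ifngr1 and Cx3cr1 were lower.

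The interferon-inducible GTPases rose. Guanylate-binding proteins (GBPs) coat vacuoles and bacteria that enter the cell, and immunity-related GTPases (IRGs) disrupt vacuoles of intracellular pathogens. All 11 GBPs were called higher, with a median log2 fold change of 5.70 against -0.02 over all genes tested, and 12 of 13 IRGs with a median of 3.56. Without IFNγ replicate 1 the medians were 6.39 and 3.69 and all members of both lists passed, and without replicate 2 the medians were 5.3 and 2.62. The uncalled IRG was the predicted gene 9930111J21Rik2. These genes share sequence within families, so reads from close copies may have been split or dropped.

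Gbp2 went from 28.0 and 31.5 CPM to 3310 and 6002 CPM, a log2 fold change of 7.29 ± 0.37 (edgeR adjusted p = 1.97e-06). Gbp5, which is linked to inflammasome assembly, went from 12.5 and 10.1 to 237 and 935 CPM, or 5.70 ± 0.60. Gbp11, which the annotation lists as a polymorphic pseudogene, rose from 1 count in both untreated libraries together to 879 counts. Its ratio was 1950 with a 95% counting interval from 350 to 77200. Gbp2b was at 0 in both untreated libraries and at 50.7 and 46.1 CPM with IFNγ, so at least 352-fold higher when 3 counts over the untreated group set the floor. Gbp10, at 0 untreated, was at least 74.8-fold higher. IFNγ replicate 1 was the lower of the treated libraries for Gbp2 and Gbp5 but not for Gbp2b.

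Irgm1, a regulator of the other IRGs and of autophagy, went from 151 and 154 to 493 and 1315 CPM, or 2.57 ± 0.37 on the log2 scale, and 3.14 without IFNγ replicate 1. Iigp1, an effector IRG, went from 21.5 and 22.8 to 665 and 1943 CPM, or 5.88 ± 0.46. Igtp went from 40.3 and 42.3 to 345 and 1020 CPM and Irgm2 from 81.3 and 76.4 to 370 and 813 CPM. In these 4 IRGs the replicate 2 library was the higher of the treated pair.

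Genes for antigen presentation rose together. MHC class II genes, which display peptides to helper T cells, were called higher in 8 of 10 cases with a median of 3.22, and MHC class I and antigen processing genes in 20 of 21 with a median of 2.60. H2-Ab1, a class II chain, went from 18.3 and 37.8 to 585 and 348 CPM, or 4.06 ± 0.56 (edgeR adjusted p = 0.000475), and 3.67 without IFNγ replicate 1. Cd74, the invariant chain that fills the class II groove before peptide, went from 89.9 and 153 to 1761 and 1017 CPM. H2-Aa went from 17.5 and 49.8 to 245 and 312 CPM. Untreated replicate 2 was the higher of its pair for all 3, and the treated libraries lay above both.

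In the class I pathway, Tap1 and Tap2, which together carry peptides into the endoplasmic reticulum, went from 156 and 178 to 1706 and 1046 CPM and from 34.4 and 37.9 to 801 and 327 CPM. Psmb9, an immunoproteasome subunit, rose from 45.3 and 58.5 to 210 and 249 CPM, a log2 fold change of 2.15 ± 0.18. H2-K1, a class I heavy chain, rose from 1060 and 1315 to 6045 and 3514 CPM. B2m, the class I light chain, was the uncalled member at 1572 and 1637 CPM untreated and 418 and 4186 CPM treated, so it depended on which treated library was read. Without IFNγ replicate 1 all 21 were called higher.

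**Figure D3:**
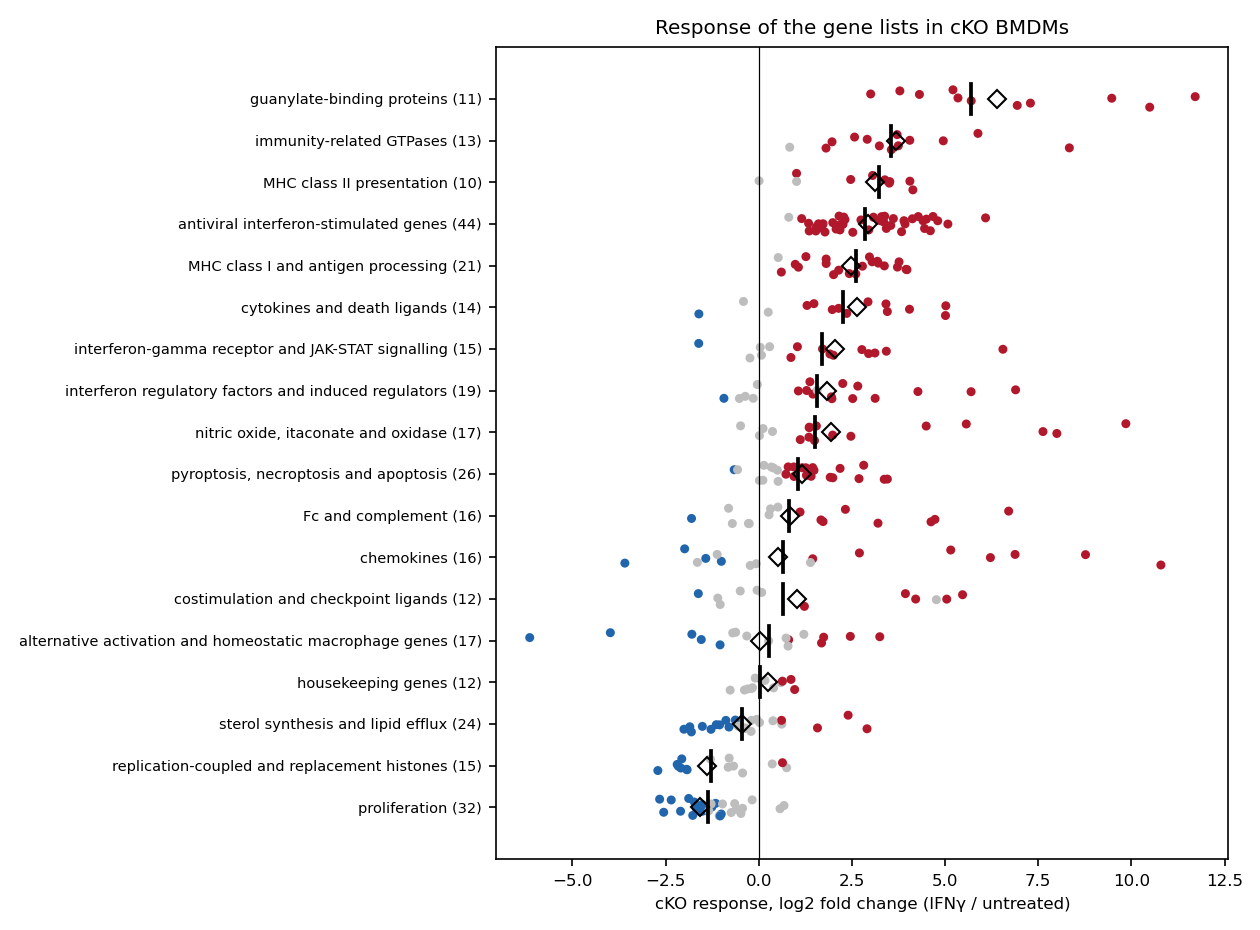
Log2 fold changes of the tested members of each gene list with IFNγ in cKO cells. Red points were called higher, blue lower and grey not called. The black bar is the median of the list and the open diamond the median without IFNγ replicate 1. The GBPs have the highest median, 5.70, and the proliferation and histone lists lie below 0.

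Antiviral ISGs, which were defined through type I interferon but are also induced by IFNγ, were called higher in 43 of 44 cases with a median of 2.85. Isg15, a ubiquitin-like modifier, went from 42.6 and 44.8 to 1147 and 712 CPM, a log2 fold change of 4.41 ± 0.28 (edgeR adjusted p = 6.26e-06), and 4.05 without IFNγ replicate 1. Rsad2, which makes an antiviral nucleotide, went from 206 and 178 to 3762 and 3691 CPM. Mx1, a dynamin-like GTPase against viruses, went from 71.1 and 61.8 to 1643 and 1364 CPM. For all 3 both treated libraries lay far above both untreated ones. Oasl1, a oligoadenylate synthetase-like protein, rose from 53.2 and 65.9 to 1042 and 1033 CPM, and Ifit1, which binds foreign RNA caps, from 129 and 125 to 1454 and 1657 CPM. The uncalled member was Rtp4, at a log2 fold change of 0.81 (edgeR adjusted p = 0.131). In the fit of the 4 cKO libraries alone 32 of the 44 passed.

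Chemokines moved both ways. The CXCR3 ligands Cxcl9 and Cxcl10, which draw activated T cells, rose, while Cxcl2, Ccl3, Ccl4 and Ccl9 fell. Cxcl11, which the annotation lists as a polymorphic pseudogene, also rose as a transcript. Of 16 tested chemokines, 7 were called higher and 4 lower, against 17.2% and 16.4% of all genes tested. Cxcl9 went from 0.325 and 0.587 to 202 and 1424 CPM, a log2 fold change of 10.79 ± 1.08 (edgeR adjusted p = 6.26e-05), and 11.63 without IFNγ replicate 1. Cxcl10 went from 25.8 and 23.2 to 753 and 989 CPM. Ccl5, a chemokine that draws T cells, went from 1.22 and 1.57 to 9.06 and 188 CPM, so its size rested on replicate 2. Cxcl11 had 2 untreated counts and 659 treated counts, a ratio of 732 with a 95% counting interval from 202 to 6060, and lost its call without IFNγ replicate 2 (edgeR adjusted p = 0.0542). Cxcl2, a ligand of CXCR2, fell from 9.01 and 9.49 to 0 and 0.942 CPM, and Ccl3 from 46.7 and 42.6 to 8.45 and 12.7 CPM.

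Among cytokines and death ligands 11 of 14 were called higher and 1, Osm, lower. Il18bp, the soluble inhibitor of IL-18, rose from 6.74 and 7.63 to 47.1 and 183 CPM. Tnfsf10, the death ligand TRAIL, rose from 12.5 and 12.4 to 173 and 629 CPM. Il15 was called, but IFNγ replicate 1 at 18.7 CPM lay within the untreated range of 17.4 to 21.2 CPM and replicate 2 was 125 CPM, and the call was lost without replicate 2 (edgeR adjusted p = 0.876). Tnf was not called, with 62.8 and 68.2 CPM untreated and 30.2 and 119 CPM treated. Il12b had 1 count in the 4 libraries and was not tested.

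Nos2, which makes nitric oxide, was near 0 in untreated cKO cells at 0.406 and 0.0978 CPM and was 146 and 364 CPM with IFNγ, a log2 fold change of 9.85 ± 0.84 (edgeR adjusted p = 2.41e-05). Acod1, which makes itaconate, rose from 17.8 and 23 to 375 and 1553 CPM. Gch1, which makes the cofactor of nitric oxide synthase, rose from 29.7 and 28.6 to 109 and 121 CPM. Of 17 tested genes for nitric oxide, itaconate and oxidase, 13 were called higher and 0 lower. Ido1, a tryptophan-degrading enzyme, was at 0 in untreated libraries and at 1.81 and 3.3 CPM with IFNγ, at least 23-fold higher against the 3-count floor.

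Cd274, the checkpoint ligand PD-L1, went from 30.2 and 27.5 to 781 and 1122 CPM, a log2 fold change of 5.05 ± 0.25, and Cd40, a costimulatory receptor, from 8.52 and 9.68 to 392 and 415 CPM. Of 12 costimulation and checkpoint genes, 5 were called higher and Tnfsf9 was called lower. Among 26 genes for pyroptosis, necroptosis and apoptosis, 17 were called higher and Bcl2, which blocks apoptosis, was called lower, a call lost without IFNγ replicate 2 (edgeR adjusted p = 0.0701). Casp4, the sensor of intracellular lipopolysaccharide, rose from 19.1 and 21.7 to 198 and 222 CPM, and Mlkl, the executor of necroptosis, from 27.3 and 27.5 to 165 and 219 CPM. Gsdmd, which forms the pyroptotic pore, rose from 55.0 and 61.7 to 231 and 232 CPM. Treated libraries matched closely for Casp4, Gsdmd and Cd40.

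Of 16 tested Fc receptor and complement genes, 8 were called higher and C5ar1, a receptor for the C5a fragment, lower. C3, the central complement component, rose from 47.9 and 67.8 to 831 and 2014 CPM, and Fcgr1, a high-affinity IgG receptor, from 171 and 206 to 521 and 1366 CPM. The C1qa call (1.11 ± 0.37, edgeR adjusted p = 0.0396) was lost without IFNγ replicate 1.

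Beyond these lists, the largest increases among abundant protein-coding genes included Tlr12, Serpina3f, Serpina3g, Il12rb1 and Klrk1. Tlr12, a receptor for parasite profilin, was at 0 untreated and at 43.5 and 21.1 CPM treated, at least 186-fold higher against the 3-count floor. Serpina3g, a protease inhibitor, went from 0.812 and 1.27 to 557 and 1139 CPM. Il12rb1, a chain of the receptor for IL-12 and IL-23, went from 0.406 and 0.978 to 567 and 434 CPM. The groups were far apart in all 3. Gm10801 was also among them, at 0 and 0.0978 CPM untreated and 562 and 0.353 CPM treated, so its call came from IFNγ replicate 1 and was lost without it (edgeR adjusted p = 0.683).

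The genes that fell most included surface receptors of macrophages. Cx3cr1, the fractalkine receptor, was 66.6 and 75.9 CPM untreated and 1.21 and 0.942 CPM with IFNγ, a log2 fold change of -6.14 ± 0.48 (edgeR adjusted p = 1.57e-05), and -6.19 without IFNγ replicate 1. Cd163, a haemoglobin-haptoglobin scavenger receptor, went from 27.4 and 24.4 to 2.42 and 1.41 CPM. S1pr1, a receptor for sphingosine 1-phosphate, went from 54.1 and 52.4 to 4.23 and 2.36 CPM. All 3 were low in both treated libraries. The other leading decreases were Cmah, Tox2, Rnf150, Lhfpl2, Mboat1, Ssh2, Epas1, Lama3 and Alox5, from -5.44 to -3.23 on the log2 scale. The Lama3 call was lost without IFNγ replicate 2 (-2.0, edgeR adjusted p = 0.0504).

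The list of alternative activation and homeostatic macrophage genes moved both ways, with 5 of 17 called higher and 5 lower. Over all genes tested the shares were 17.2% and 16.4%, so these counts alone do not set the list apart. Gas6, a ligand of TAM receptors, went from 818 and 893 to 221 and 272 CPM, and Stab1, a scavenger receptor, from 1057 and 940 to 420 and 269 CPM. Axl and Mertk, receptors of that ligand, rose by 2.46 ± 0.33 and 1.74 ± 0.33 on the log2 scale. Mrc1, the mannose receptor, was 526 and 459 CPM untreated and 302 and 339 CPM treated (edgeR adjusted p = 0.0775). Klf4, a factor linked to alternative activation, rose from 10.2 and 11.2 to 62.8 and 136 CPM.

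Sterol genes also moved both ways. Of 24, 10 were called lower, among them Sqle (70.6 and 76.3 to 19.9 and 21.7 CPM) and Cyp51 of cholesterol synthesis, and 4 higher. Ch25h, which makes 25-hydroxycholesterol, and the sterol exporter Abcg1 were among the genes that rose, at 2.91 ± 0.60 and 2.40 ± 0.23 on the log2 scale, while the exporter Abca1 fell. The Ch25h call was lost without IFNγ replicate 2 or untreated replicate 1.

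Proliferation genes fell. Of 32 tested, 18 were called lower and 0 higher, with a median of -1.36. In the fit of the 4 cKO libraries alone 9 passed. Mki67, a marker of cycling cells, went from 462 and 395 to 136 and 151 CPM, or -1.57 ± 0.44 (edgeR adjusted p = 0.0194). Myc went from 41.2 and 39.2 to 14.5 and 2.94 CPM, and Rrm2, a ribonucleotide reductase subunit, from 117 and 109 to 27.2 and 14.5 CPM. The Mki67 call was lost without either untreated library, and that of Myc without untreated replicate 1 or IFNγ replicate 2. Without IFNγ replicate 1, 18 of the 32 were called lower, and without replicate 2, 10 were. Replication-coupled H3 histone genes fell with them: 7 of the 15 tested histone genes were called lower, all Hist1h3 copies, and H3f3b was the 1 called higher (0.64 ± 0.18, edgeR adjusted p = 0.022). That H3f3b call was lost without either untreated library and in the fit of the 4 cKO libraries alone (edgeR adjusted p = 0.196). Hist1h3c went from 119 and 150 to 25.4 and 42.4 CPM, or -1.93 ± 0.33. Hist1h3 copies are nearly identical in sequence, so reads may be split among them, and their messages lack poly(A) tails, which total RNA after rRNA depletion still captures.

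Of 12 housekeeping genes, 3, Hprt and Ywhaz among them, were called higher and 0 lower, with a median of 0.04. In the fit of the 4 cKO libraries alone fewer genes passed in most lists. Called higher were 11 of 11 GBPs, 10 of 13 IRGs, 15 of 21 class I genes and 7 of 10 class II genes. Receptor and JAK-STAT genes gave 7 of 15, regulators 7 of 19 and nitric oxide, itaconate and oxidase genes 5 of 17. Cell death genes gave 8 of 26, cytokines 7 of 14, Fc and complement genes 3 of 16 and chemokines 3 of 16. Of 24 sterol genes 3 were called lower. Without IFNγ replicate 1 the counts called higher were 12 of 15 for receptor and JAK-STAT genes, 44 of 44 for antiviral ISGs, 13 of 14 for cytokines, 13 of 17 for nitric oxide, itaconate and oxidase genes and 20 of 26 for cell death genes. For chemokines it was 7 higher and 3 lower, for costimulation genes 5 and 1, for Fc and complement genes 9 and 1 and for alternative activation genes 6 and 5. Without it 9 of 15 histone genes were called lower.

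WT cells treated alongside gave the comparison of genotypes. In WT cells 2609 genes (20%) were called higher and 2631 (20.1%) lower, and the WT and cKO responses share no library. Of the genes called higher in cKO cells 1769 were also called higher in WT, 78.7% of the cKO list and 67.8% of the WT list, and 4 were called lower in WT. Of the genes called lower 1643 were shared, 76.4% of the cKO list and 62.4% of the WT list, and 1 was called higher in WT. When IFNγ replicate 1 was left out, 2526 genes called higher (84.4% of the cKO list) and 2229 called lower (83.6%) were shared.

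**Figure D4:**
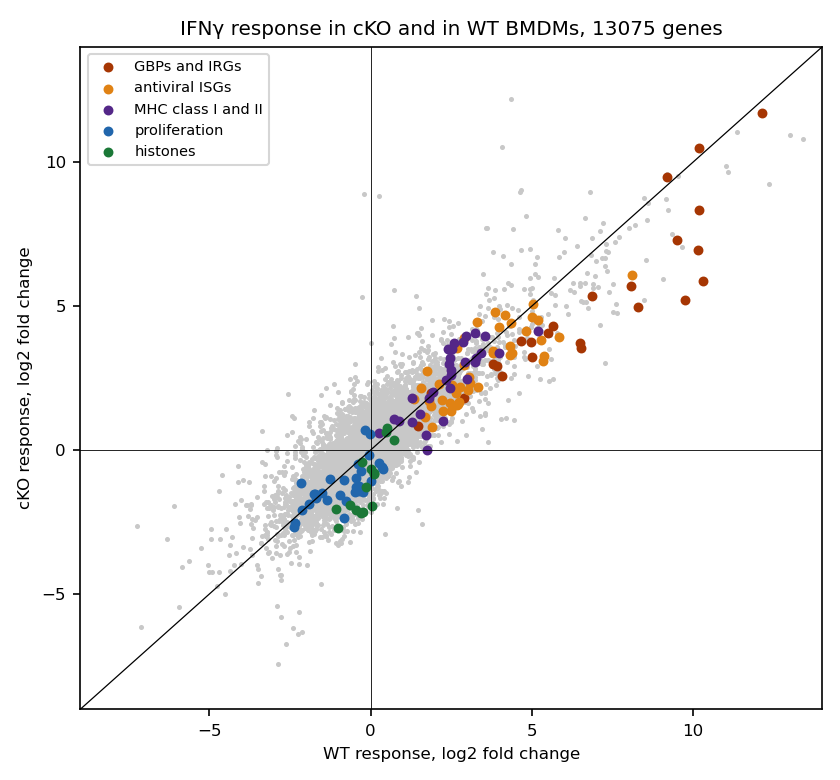
Log2 fold change with IFNγ in WT cells (horizontal axis) against that in cKO cells (vertical axis) for the genes tested, with the described lists in colour and the line of equal response. Of the GBPs 9 of 11, and of the IRGs 12 of 13, lie below the line, at WT medians of 9.18 and 4.99 against cKO medians of 5.70 and 3.56.

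The difference between the cKO and WT responses was then tested directly. By edgeR 0 genes passed the adjusted threshold, with 1105 (8.45%) at an unadjusted p under 0.05 and a lowest adjusted p of 0.0892, whereas DESeq2 called 83 edgeR without IFNγ replicate 1 called 37 and without IFNγ replicate 2 called 3359. For 22 genes, chosen here after their values were seen, both DESeq2 and the fit without IFNγ replicate 1 called a difference. Of these, 8 rose less in cKO than in WT cells (Gbp6, Iigp1, Gbp4, Olfr56, Zbp1, Gbp2, Ifi47 and Ifi211). In the other 14 the cKO log2 fold change was above that of WT, which is not always a larger response. Tom1l2, Basp1, Slc26a2, Crim1, Nlgn2, Uaca and Klf4 rose more in cKO cells. Magi3, Nlrp10 and Tnfrsf22 fell in WT and rose in cKO cells. Rdx, Epb41l1, Sipa1l2 and Dio2 fell in WT cells and changed by only 0.24 to 0.35 on the log2 scale in cKO cells. Iigp1 and Magi3 shared the lowest adjusted p, in opposite directions. Iigp1 had a difference of -4.43 ± 0.54 on the log2 scale (edgeR adjusted p = 0.0892): WT cells went from 2.26 to 2890 CPM and cKO cells from 21.5 and 22.8 to 665 and 1943 CPM. Magi3 had a difference of 2.19 ± 0.28 (edgeR adjusted p = 0.0892): WT cells went from 9.39 to 5.81 CPM and cKO cells from 5.2 and 5.38 to 13.3 and 16 CPM.

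Levels before and after treatment were also compared between genotypes. Under IFNγ 631 genes were called, 418 higher in cKO (3.2%) and 213 lower (1.63%), and without treatment 80 genes, 66 higher in cKO (0.505%) and 14 lower (0.107%). The count under IFNγ moved with the fit, to 153 with a replicate block, to 17 when only the groups compared were fitted, to 98 without WT IFNγ replicate 3 and to 1309 or 4762 without cKO IFNγ replicate 1 or 2. These comparisons share libraries with the cKO response, so their values are given side by side. Antiviral ISGs were called higher in cKO cells in 20 of 44 cases untreated, with a median of 1.51, and in 21 of 44 under IFNγ, with a median of 0.944. Class I genes were higher in 5 of 21 cases untreated and 11 of 21 under IFNγ, with a median of 0.923. Class I calls under IFNγ depended on the fit, and those of Tapbpl, Tap1 and Tap2 were lost in 12, 10 and 5 alternatives, each of them in the fit of only the groups compared and without WT IFNγ replicate 1 or 3. GBPs were higher in 4 of 11 untreated and in 0 under IFNγ, with a median of 0.0991, and IRGs in 3 of 13 and 0, with a median under IFNγ of -0.236. With IFNγ replicate 1 left out the medians under IFNγ were 1.17 for antiviral ISGs, 0.543 for class I genes, 0.255 for GBPs and 0.34 for IRGs, whose median changed sign.

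Oasl1 averaged 7.90 CPM in untreated WT cells and 220 CPM in treated WT cells, and in cKO cells was 53.2 and 65.9 CPM untreated and 1042 and 1033 CPM treated. Its cKO to WT log2 ratio was 2.92 untreated (edgeR adjusted p = 0.000382) and 2.24 under IFNγ (edgeR adjusted p = 0.00067). Isg15 averaged 13.5 ± 2.85 (SD, n = 3) and 275 ± 15.6 CPM in WT cells, at log2 ratios of 1.70 (edgeR adjusted p = 0.00843) and 1.76 (edgeR adjusted p = 0.00362). Iigp1 was higher in cKO cells untreated by 3.28 (edgeR adjusted p = 0.00485) and under IFNγ was at -1.15 (edgeR adjusted p = 0.0906). Gbp2, at 12.0 ± 1.83 CPM untreated and 8767 ± 1017 CPM treated in WT, gave log2 ratios of 1.31 and -0.91, neither called. Irf1 differed by -0.11 under IFNγ, also not called.

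**Figure D5:**
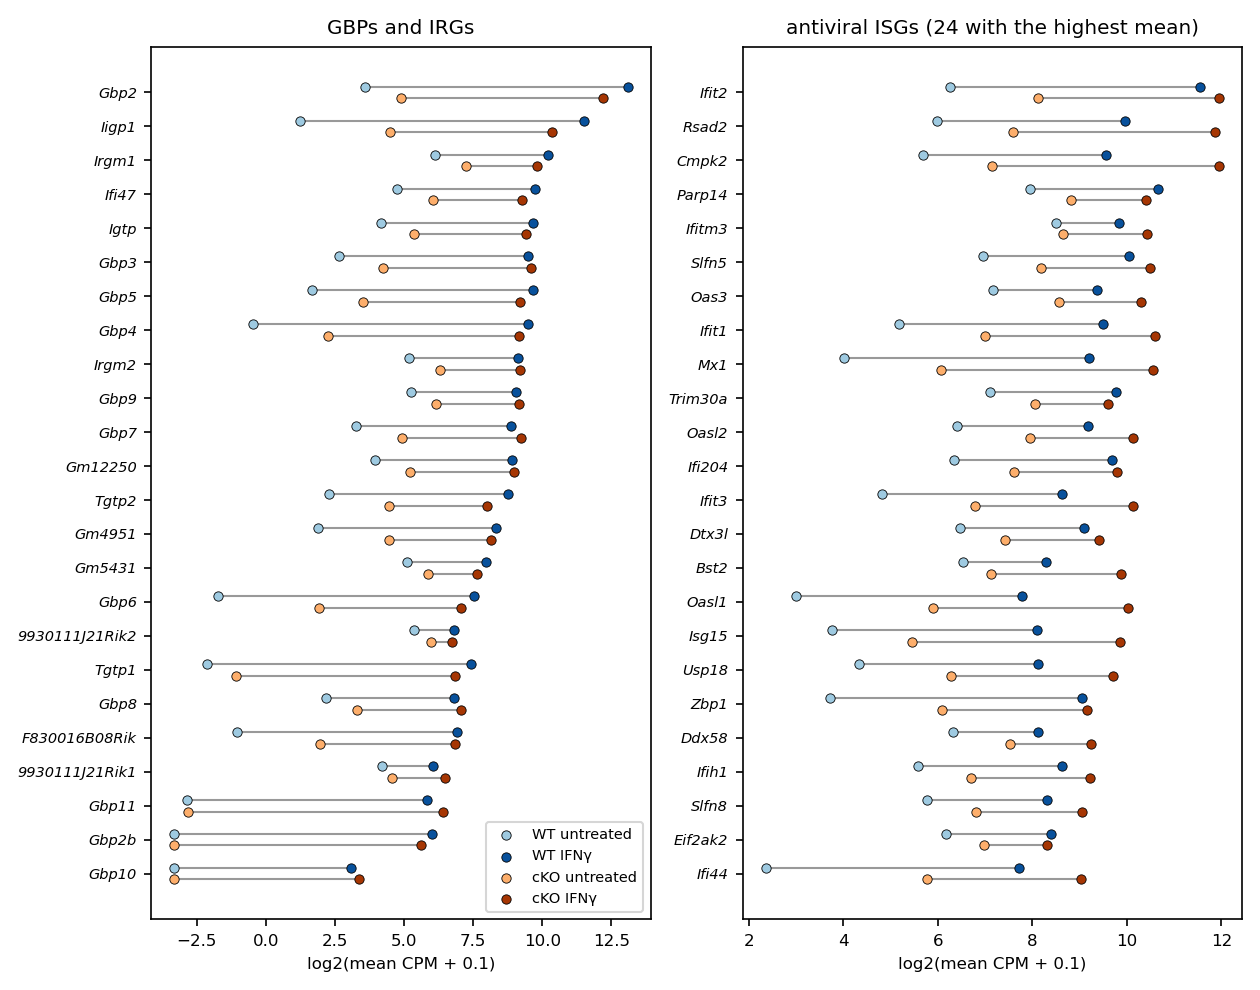
Mean CPM on a log axis untreated and with IFNγ for WT and cKO cells, in GBPs and IRGs (24 genes) and in the 24 antiviral ISGs with the highest mean. Antiviral ISGs such as Isg15, at 13.5 CPM in WT against 42.6 and 44.8 CPM in cKO libraries, were called higher in cKO cells in 20 of 44 cases untreated and 21 of 44 with IFNγ, while 4 of 11 GBPs and 3 of 13 IRGs were called higher untreated and 0 with IFNγ.

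Among the 32 proliferation genes, 12 were called lower in WT cells and 18 in cKO cells, with medians of -0.47 and -1.36. In the histone list, Hist1h3c had a log2 fold change of 0.03 in WT cells and was lower in cKO than WT cells under IFNγ by a log2 ratio of -1.58 (edgeR adjusted p = 0.0238). The difference between responses was not called for it by edgeR (-1.96, edgeR adjusted p = 0.266) but was by DESeq2 (-1.92, DESeq2 adjusted p = 0.0073). Klf4 rose from 11.4 to 26.1 CPM in WT cells and was higher in cKO cells under IFNγ by 1.96 (edgeR adjusted p = 0.0049).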

How the data were processed

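The authors trimmed reads with Cutadapt, aligned them to the mouse genome (mm10) with STAR and deposited raw counts of reads per gene for each library, made from rRNA-depleted total RNA. Here the unstranded counts of 10 placed day 8 libraries (WT untreated 3, WT IFNγ 3, cKO untreated 2, cKO IFNγ 2) were fitted in a single model, because the 2 against 2 comparison then shares the spread of all groups. The columns for the separate strands served only as an alternative, and libraries of other days were not used. Groups came from sample titles. Gene names and loci came from GENCODE vM21, which matched 54079 of 54146 genes listed. The labels do not say that libraries came from separate animals beyond calling them biological replicates, and p-values measure the spread between these samples.

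Genes were kept with edgeR's filterByExpr (smallest count 10, smallest total 15), scaled by TMM and tested with edgeR 4.0.16 (glmQLFit, glmQLFTest) in R 4.3.3, with Benjamini-Hochberg adjustment over 13075 genes and a threshold of 0.05. SE was the log2 fold change over the square root of F. The main alternatives were DESeq2 1.42.0, other scaling and filters, the strand column, fits of only the groups compared, leaving out each library, a replicate block and thinning to the smallest library. Removal of structural RNA loci and a crossed replicate block were chosen after seeing the data. Libraries held 3614967 to 9879339 counts on genes, and counting intervals cover counting error only. Same-numbered cKO libraries correlated at -0.17 in their deviations from group means over 8699 genes, against 0.53 to 0.66 in WT. The cKO value includes IFNγ replicate 1, the library that stood apart, so it cannot show whether cKO libraries were paired. In WT, same-numbered libraries did vary together. The main fit did not take the numbers as pairs in either genotype. With the replicate block the WT response gave 4677 genes called against 5240, and the difference of the response gave 0. The script was tested on simulated data. Genes named were a set of 47 chosen for their roles, the 12 genes called higher and 12 called lower with the largest changes among protein-coding genes at a mean log2 CPM of at least 3 with no overlap of groups, and the leading members of each list. The main edgeR fit called no difference of the response, so that part of the rule named 0 genes. Other list members with values were picked for the text after they were seen. The members and lists were chosen with earlier results of these data known. Results for a few items are not reported here.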

Additional observations from a re-analysis of the deposited data

Results flagged for a closer look

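Of the day 8 cKO libraries of replicate 3, 1 is titled untreated and the other IFNγ, while their library names say the reverse, so neither entered a comparison. The library titled untreated held 6466 CPM of Gbp2, 1707 CPM of Cxcl9 and 337.6 CPM of Ciita (CPM here without TMM scaling), far above the 28.4 and 31.9 CPM of Gbp2 in the 2 placed untreated cKO libraries. The library titled IFNγ held 22.79 CPM of Gbp2, 0.41 CPM of Cxcl9 and 4.82 CPM of Ciita. Both were low in H3f3a, at 5.36 and 5.80 CPM, and in Lyz2, at 3.0 and 7.76 CPM. What set these levels was not tested.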

How the results depend on the processing

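Of 1862 values for named genes in the cKO response under alternatives, 1819 kept their direction and side of the threshold, 30 fell below it, 7 passed it and 6 changed sign. Of the 89 named genes 83 were called in the main fit. Many were named for the size of that change, so much of this stability was set by the choice. The count of 4399 genes called was 4679 with DESeq2, 4390 with RLE scaling, 4584 with no filter on low counts, 4150 with the strand column, 3710 thinned to the smallest library and 4402 without structural RNA loci. It was 1097 with only the groups compared, where 61.5% of calls were higher against 51.1%, and 1596 with that fit and a replicate block. With only the groups compared, 24.8% of the 4399 calls were kept. Leaving out a library gave 2349 to 5661. In all 10 libraries the replicate block gave 3639. The labels tie same-numbered libraries by number only, while their deviations from group means correlated at 0.53 to 0.66 in WT and -0.17 in cKO cells. A crossed block, added after seeing the data, gave 4001 calls in the cKO response and 236 under IFNγ.

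The difference of the response, with 0 calls, gave 83 with DESeq2, 231 with no filter and 0 to 3359 leaving out a library (37 without cKO IFNγ replicate 1, 3359 without replicate 2). The 631 genes called between genotypes under IFNγ were 1510 with DESeq2, 1534 with no filter, 17 with only the groups compared, 153 with a replicate block, 50 with both, 356 at a log2 fold change of at least 1, and 98 to 4762 leaving out a library. Of 16 named genes called there, 82 of 336 values fell below the threshold. The WT response gave 2848 at a log2 fold change of at least 1, where the criterion itself is stricter. For the other changes the cause was not tested.

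Log2 fold changes of 4 genes that were not called changed sign, and leaving out a library gave -0.657 to 2.0 for Lyz2, -0.639 to 0.0614 for Ifngr2, -0.735 to 0.226 for Irf9 and -0.463 to 0.411 for Jak1, the outer values being those without a cKO IFNγ library. Jak1 was -0.0652 with no filter and -0.0335 without cKO untreated replicate 1. A fit without an IFNγ library leaves a lone treated sample, assumed to vary like the other groups, and 3614967 counts in the smallest library limit the precision for low genes.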
